A study of Rattus norvegicus with 6 samples.

Results

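The insulin-like growth factor (IGF) system was examined in stromal cells of rat bone marrow. These are marrow cells that attach to culture surfaces and can give rise to bone, fat and cartilage. The members were 10 genes chosen by name: the ligand gene Igf1, the receptor genes Igf1r and Igf2r, the binding protein genes Igfbp2, Igfbp3, Igfbp4, Igfbp5, Igfbp6 and Igfbp7, and the protease gene Pappa. Of these, 9 stood under those names in the array file, and Pappa stood under its older symbol Pappa1 and was matched through a RefSeq table. They were measured by 17 of the 45598 probes. All 10 genes passed the filter on dim probes, among 19616 genes tested in all.

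Total RNA was measured on 6 one-colour arrays of 60-base probes. In the tantalum-modified titanium group (Ta, n = 3 arrays), marrow cells of rat tibias were grown for 7 days on titanium carrying a tantalum modification. In the simple titanium group (Ti, n = 3 arrays), the same kind of cells were grown for 7 days on unmodified titanium. The series' design text describes the cultures as independent experiments, and strain, sex, age and the number of animals are not given in the sources used here. The comparison asks how transcript levels depend on the surface.

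The share of spots well above background was 62.7% to 65.9% over the 6 arrays, controls left out, and 0 spots were saturated. All arrays lay on the same slide, where row 1 held the 3 Ta arrays and Ti replicate 1, and row 2 held the other Ti arrays. The main results are also given with single arrays left out.

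IGF1 is a secreted growth factor that acts through the tyrosine kinase receptor IGF1R to promote growth, survival and matrix production, and bone-forming cells both make it and respond to it. Most of it is held by IGF binding proteins, which prolong its life and control its access to the receptor. Proteases such as pappalysin 1, the product of Pappa, cut binding proteins and free the ligand. IGF2R, the mannose 6-phosphate receptor, carries IGF2 to lysosomes and does not signal as IGF1R does.

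A probe each of Igf1, Igf1r, Igfbp6 and Pappa is shown, because the results below turn on them or compare another probe with them. Each can be read in 2 of its 3 forward frames without a stop codon, but no annotation of the array's build was at hand to place the probes in exons. They are given 5′ to 3′ with the array design's coordinates, which the file headers assign to the rn4 build. The Igf1 probe lies at chr7:24587916-24587975 on the plus strand. The Igf1r probe lies at chr1:122989150-122989209 and the Igfbp6 probe at chr7:140888422-140888481, both on the plus strand. The Pappa probe reaches over chr5:82078667-82085444, a span of 6778 bases for 60 bases of sequence, so it is not 1 continuous stretch of genome.
Igf1: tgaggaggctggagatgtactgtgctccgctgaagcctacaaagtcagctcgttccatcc
Igf1r: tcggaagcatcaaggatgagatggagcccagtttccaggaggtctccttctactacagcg
Igfbp6: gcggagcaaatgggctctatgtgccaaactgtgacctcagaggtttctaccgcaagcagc
Pappa: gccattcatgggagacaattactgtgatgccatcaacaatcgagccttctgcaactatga

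Igf1 was lower on Ta, at 0.471 times its Ti level, and it was the member that passed the test over all genes. The values are log2 processed signal after each array was scaled to a common 75th percentile (log2 normalised signal). By the probe shown above, Igf1 lay at 12.28, 11.81 and 11.90 on Ta replicates 1, 2 and 3, against 13.14, 12.93 and 13.18 on Ti replicates 1, 2 and 3. Every Ta array lay below every Ti array, and Ta replicate 1 was the nearest to Ti. The SD between arrays was 0.25 on Ta and 0.14 on Ti (log2, n = 3 each). In limma Igf1 fell by 1.09 (log2) with an SE of 0.15, a 95% interval of -1.45 to -0.72 and an adjusted p of 0.0396. The probe was spotted 10 times on each array, and the SD between spots of an array was 0.034 to 0.077, below the SD between arrays of either group.

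The call of Igf1 did not hold in every fit. With all 6 arrays, 809 genes (4.12%) passed an adjusted p of 0.05 in limma, 521 (2.66%) higher on Ta and 288 (1.47%) lower. With median scaling the split was 416 higher and 361 lower. When Ta replicate 2, Ta replicate 3, Ti replicate 1 and Ti replicate 3 were each left out, Igf1 differed by -0.99, -1.04, -1.06 and -1.04, and the adjusted p was 0.162, 0.13, 0.124 and 0.154. In each of these 4 fits limma called 0 genes of any kind, while 3818, 3902, 4474 and 3819 genes had an unadjusted p under 0.05. Without Ta replicate 1 it differed by -1.23 (adjusted p = 0.00812), in a fit that called 16.4% of all genes. Without Ti replicate 2 it differed by -1.17 and was also called, as were 7.97% of all genes. Within slide row 1, where the 3 Ta arrays can be set only against Ti replicate 1, the difference was -1.15 (adjusted p = 0.191, 0% of genes called in all and 3837 with an unadjusted p under 0.05). Quantile scaling, median scaling and the mean of a gene's probes kept the call and called 3.97%, 3.96% and 4.07% of all genes. A block for replicate number lost it (limma adjusted p = 0.0697, 8 genes called in all). It was also lost with no filter on dim probes (limma adjusted p = 0.111, 0 genes called in all). Of the 16 alternatives, 7 lost the call.

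The other 4 Igf1 probes lie 17561 to 22863 bases further along the plus strand of chromosome 7. The most distant, at chr7:24610779-24610838, gave 11.72, 11.14 and 10.98 on Ta, against 12.65, 12.44 and 12.78 on Ti. In limma it fell by 1.34 (log2) with an SE of 0.21 and an adjusted p over all probes of 0.0406. The probe at chr7:24607739-24607798 gave 10.22, 9.62 and 9.72 on Ta and 10.91, 10.69 and 10.83 on Ti, and fell by 0.96 (adjusted p = 0.045 in limma). In both, the 2 groups of arrays did not overlap. As for Igf1 by gene, 0 probes of any member were called in the fits without Ta replicates 2 or 3 or Ti replicates 1 or 3 (8 to 11 at an unadjusted p under 0.05 in limma). In these fits 3818 to 4474 of all 19616 genes reached that level, and the share over all probes was not counted. The probes at chr7:24605477-24605536 and chr7:24605669-24605728, both of which the array file assigns to transcript variant 3, differed by -0.42 and -0.47 (limma adjusted p = 0.109 and 0.144). The second of these had Ta values of 7.47, 7.22 and 7.19 and Ti values of 8.10, 7.46 and 7.74, which overlapped.

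All 5 Igf1 probes were thus lower on Ta on average, by unequal amounts. The log2 ratio of the probe at chr7:24605477-24605536 to the probe shown above was -2.23 to -2.11 on Ta and -2.93 to -2.80 on Ti, a difference of 0.66. For the most distant probe the same ratio was -0.91 to -0.57 on Ta and -0.50 to -0.40 on Ti, a difference of -0.26. Neither pair of ranges overlapped. Both gave 0.1 in a two-sided exact permutation test, which is the lowest p this design can reach. Over the 7 probe pairs of the 4 genes with several probes, the p adjusted by Benjamini-Hochberg was 0.117 for 6 pairs, from exact permutation tests, and 0.3 for the pair of Igfbp5.

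**Figure D1:**
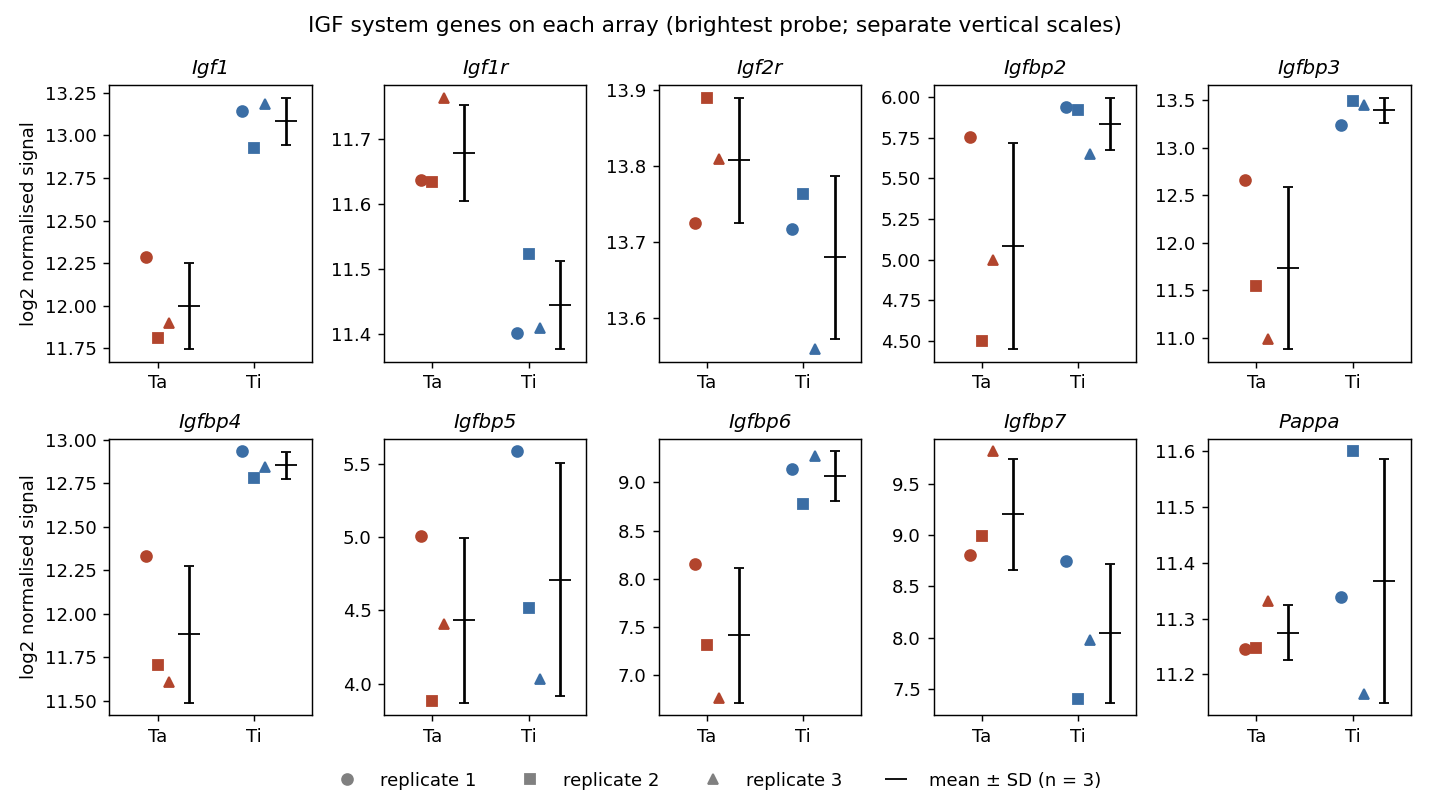
Log2 normalised signal of the 10 IGF system genes on each array (vertical axis, a separate scale for each gene), with Ta left of Ti, a symbol for each replicate, and the mean ± SD of 3 arrays as a bar. Every Ta array lies below every Ti array for Igf1, Igfbp3, Igfbp4 and Igfbp6 and above for Igf1r and Igfbp7, and for the other 4 genes the groups overlap.

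The mean levels of both receptor genes were higher on Ta, and 1 of the 3 receptor probes passed the test. Igf1r gave 11.64, 11.63 and 11.76 on Ta, against 11.40, 11.52 and 11.41 on Ti, by its brighter probe at chr1:122996687-122996746. The Ta arrays were all above the Ti arrays, by a mean of 0.23 (log2, SE 0.08, 95% interval 0.03 to 0.44), and the difference did not pass (limma adjusted p = 0.125). Its dimmer probe, shown above and starting at a lower coordinate, gave 8.89, 9.14 and 9.23 on Ta, against 8.53, 8.49 and 8.54 on Ti. By that probe Igf1r rose by 0.57 (SE 0.11, limma adjusted p over all probes = 0.0472), so the 2 probes of Igf1r fell on different sides of the threshold. This call was lost with quantile and median scaling (adjusted p = 0.051 and 0.0509), with no filter on dim probes (0.132) and within slide row 1 (0.21). It was also lost when any array but Ta replicate 1 was left out, with differences of 0.50 to 0.58 and limma adjusted p of 0.0559 to 0.176. The log2 ratio of the dimmer to the brighter probe was -2.75 to -2.49 on Ta and -3.03 to -2.87 on Ti.

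Igf2r gave 13.73, 13.89 and 13.81 on Ta, against 13.72, 13.76 and 13.56 on Ti. The groups overlapped, and the difference was 0.13 (log2, SE 0.09, 95% interval -0.10 to 0.35, limma adjusted p = 0.399). Its probe, at chr1:42340766-42340825, was also spotted 10 times, with an SD of 0.060 to 0.096 between spots of an array.

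Among the 6 binding protein genes, 0 passed the test over all genes in limma, and 4 had an unadjusted p under 0.05 (as did 30% of all genes), with Igfbp3, Igfbp4 and Igfbp6 lower on Ta (13.2% of all genes) and Igfbp7 higher (16.8%). Igfbp3, the main carrier of IGF1 in blood plasma, gave 12.66, 11.54 and 10.99 on Ta, against 13.24, 13.49 and 13.45 on Ti. The Ti arrays lay close together and the Ta arrays were spread over more than 1 log2 unit, with Ta replicate 1 nearest to Ti. The mean was 11.73 ± 0.85 on Ta and 13.39 ± 0.13 on Ti (log2, SD, n = 3 each), a difference of -1.66 (SE 0.41, 95% interval -2.65 to -0.68, limma adjusted p = 0.0671), or 0.316 times the Ti level.

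Igfbp6, which binds IGF2 in preference to IGF1, showed the same order of Ta arrays by the probe shown above. It gave 8.16, 7.32 and 6.77 on Ta, against 9.14, 8.77 and 9.28 on Ti, a difference of -1.65 (log2, SE 0.35, limma adjusted p = 0.0558). Igfbp4, an inhibitory binding protein that pappalysin 1 cuts, gave 12.33, 11.71 and 11.61 on Ta, against 12.93, 12.78 and 12.84 on Ti, a difference of -0.97 (SE 0.20, adjusted p = 0.0523). In both genes every Ta array lay below every Ti array, and Ta replicate 1 was again the nearest to Ti. The Igfbp3 probe is at chr14:87959244-87959303 on the minus strand, and the Igfbp4 probe at chr10:87834213-87834272 on the plus strand.

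These 3 genes lay near the threshold, and which side they fell on depended on the fit. Without Ta replicate 1, limma called Igfbp3 (-2.13), Igfbp4 (-1.20), Igfbp6 (-2.02) and Igfbp2 (-1.09) besides Igf1, all lower on Ta, in a fit that called 16.4% of all genes. Array weights, a setting added after the data were seen, weighted Ta replicate 2 at 7.33, against 0.319 to 2.75 for the rest, and called 8 of the 10 members, all but Igfbp5 and Pappa, and 51.9% of all genes. With normexp background correction, Igfbp3 (-1.64, adjusted p = 0.0307), Igfbp4 (-0.98, adjusted p = 0.0224) and Igfbp6 (-1.29, adjusted p = 0.0227) passed, as did 13.3% of all genes. Trend and robust settings of limma and the stricter filter on dim probes called Igfbp4 and Igfbp6 but not Igfbp3, with 10.7% and 6.59% of all genes called. In the fits without Ta replicates 2 or 3 or Ti replicates 1 or 3, 0 of the 3 passed, with limma adjusted p of 0.136 to 0.208, and Igfbp3 differed by -1.29 without Ta replicate 3. Within slide row 1 the adjusted p was 0.208 to 0.264.

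**Figure D2:**
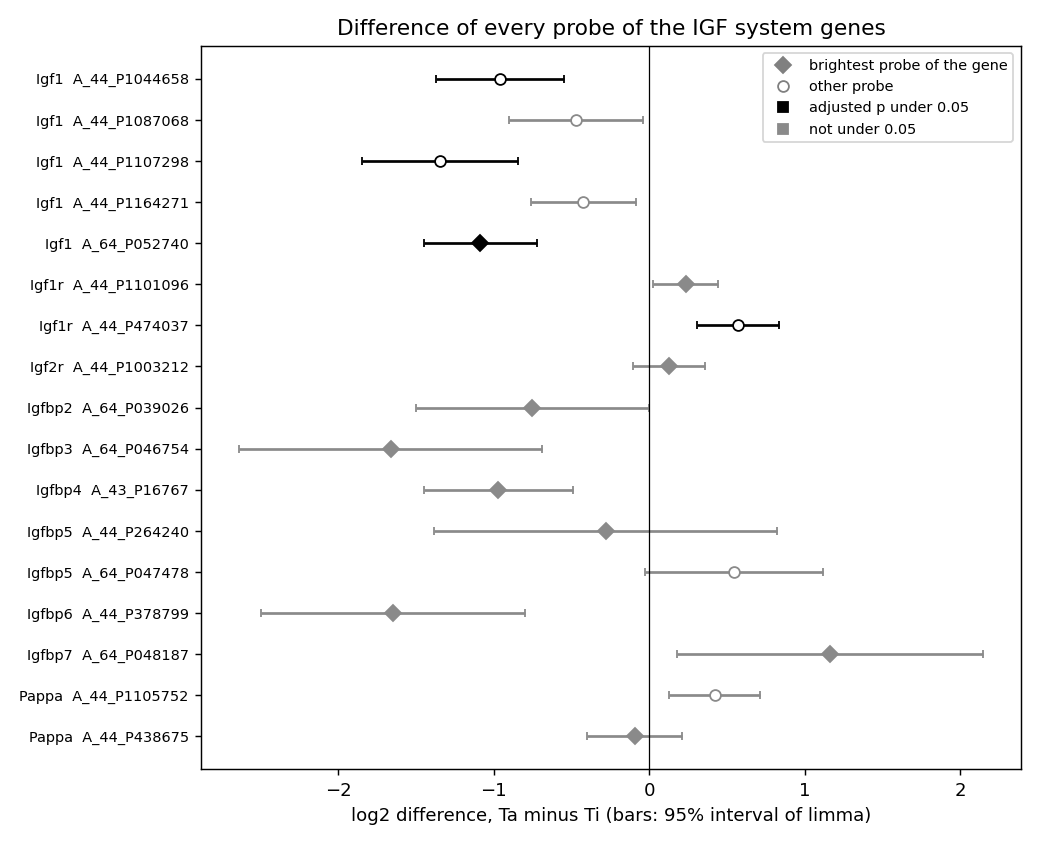
Log2 difference, Ta minus Ti, of each of the 17 probes (horizontal axis) with its 95% interval from limma. Diamonds are the brightest probe of a gene, circles its other probes, and black marks those with an adjusted p under 0.05 over all probes: 3 of Igf1 on the lower side and 1 of Igf1r on the higher side.

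Igfbp7, a secreted protein that binds IGFs only weakly and is found in vessel walls and matrix, stood on the opposite side. It gave 8.80, 8.99 and 9.82 on Ta, against 8.75, 7.40 and 7.98 on Ti. The Ta arrays were all above the Ti arrays, but Ta replicate 1 and Ti replicate 1 nearly met. The difference was 1.16 (log2, SE 0.41, 95% interval 0.17 to 2.16, limma adjusted p = 0.122), and within slide row 1, against Ti replicate 1 alone, it was 0.46.

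Igfbp2, another IGF carrier of plasma, gave 5.76, 4.50 and 4.998 on Ta, against 5.94, 5.92 and 5.65 on Ti, and Ta replicate 1 lay within the Ti range. The difference was -0.75 (log2, SE 0.31, 95% interval -1.51 to 0.00, limma adjusted p = 0.167), and with normexp background correction it was -0.19. It was -0.46 without Ta replicate 2 and -1.09 without Ta replicate 1, where it was called (limma adjusted p = 0.023).

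Igfbp5 encodes a binding protein that is stored in bone matrix. Its brighter probe gave 5.01, 3.88 and 4.40 on Ta, against 5.59, 4.51 and 4.03 on Ti, with the groups overlapping and a difference of -0.28 (log2, SE 0.46, limma adjusted p = 0.719). Its other probe, which stood well above background on every Ta array but on 1 of 3 Ti arrays, differed by 0.55 (adjusted p = 0.184), so the 2 probes pointed in opposite directions. The 95% interval of the brighter probe reached from -1.39 to 0.83, and its SD between arrays was 0.56 on Ta and 0.80 on Ti (n = 3 each).

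The binding protein genes include neighbouring pairs on opposite strands. The probes of Igfbp2 (plus strand) and Igfbp5 (minus strand) are 6121 bases apart on chromosome 9, and those of Igfbp1 (plus strand) and Igfbp3 (minus strand) are 4448 bases apart on chromosome 14. Igfbp1, an insulin-regulated binding protein that is not among the members and is named here after its values were seen, gave 6.17, 6.10 and 6.15 on Ta and 6.15, 5.69 and 5.98 on Ti. The groups overlapped, with a difference of 0.20 (log2, SE 0.13, limma adjusted p = 0.344).

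Pappa gave, by the probe shown above, 11.25, 11.25 and 11.33 on Ta, against 11.34, 11.60 and 11.17 on Ti, a difference of -0.09 (log2, SE 0.12, 95% interval -0.40 to 0.21, limma adjusted p = 0.652). A second probe, at chr5:82099281-82099340, gave 11.30, 11.33 and 11.49 on Ta, against 11.17, 10.82 and 10.86 on Ti. By that probe every Ta array lay above every Ti array, with a difference of 0.42 (SE 0.12, limma adjusted p over all probes = 0.088). The direction of Pappa is therefore uncertain, and the mean of both probes differed by 0.16.

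Over the 10 genes, 1 passed (0 higher and 1 lower), where 4.12% of all genes did. In 6 of the 10 the 2 groups of arrays did not overlap, 4 with Ta lower and 2 with Ta higher, where this held for 35.8% of all genes (16.3% lower and 19.5% higher). The median log2 difference of the members was -0.52, and that of all 19616 genes was 0.03. By probe, 4 of 17 passed, 3 lower and all of Igf1 and 1 higher, of Igf1r, where 4.31% of 25774 probes did (1.49% lower and 2.82% higher). Probes of a gene share its transcripts and are not separate observations.

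**Figure D3:**
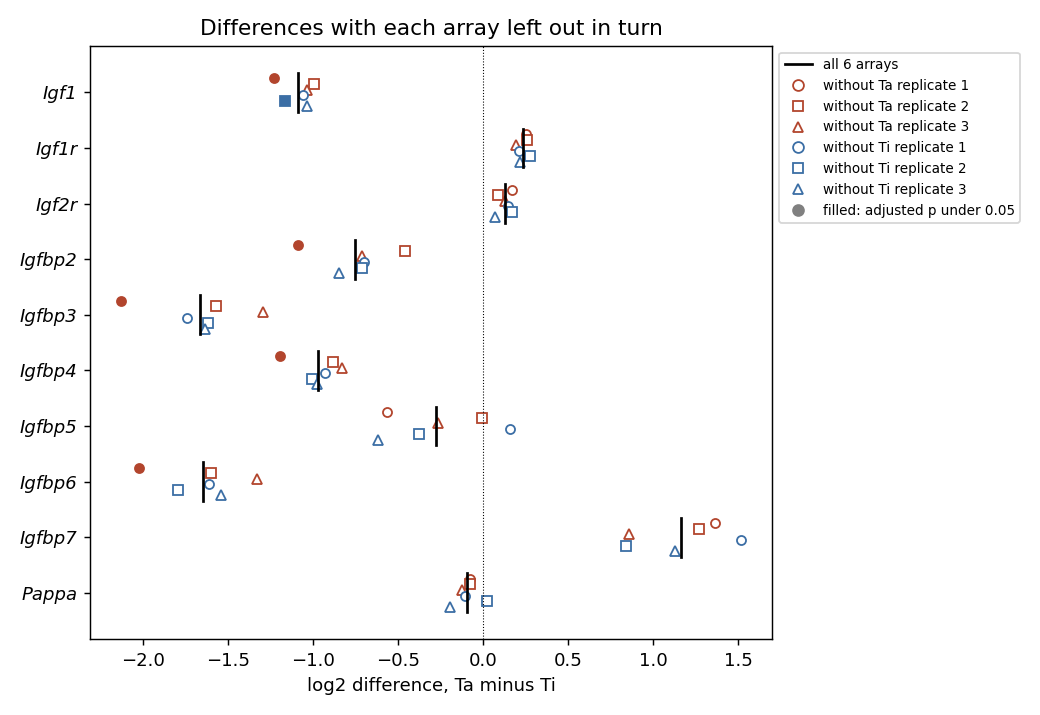
Log2 difference, Ta minus Ti, of each member (horizontal axis) with all 6 arrays (black bar) and with each array left out in turn (symbols, filled where the limma adjusted p is under 0.05). Leaving out Ta replicate 1 gives the lowest value for Igf1, Igfbp2, Igfbp3, Igfbp4 and Igfbp6, and values on both sides of 0 appear for Igfbp5 and Pappa.

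The other genes of the pathway were taken from 3 lists, written with earlier results of these data known. Of 57 genes, 52 were tested, 1 was higher on Ta, 1 was lower and 50 did not pass, with a median of -0.02. Of all genes, 2.66% were called higher and 1.47% lower. Among 13 genes of other ligands, receptors, binding partners and regulators of pappalysin 1, 10 were tested and 0 passed in limma. At an unadjusted p under 0.05 there were 4, against 30% of all genes. Pappa2, which encodes the related protease pappalysin 2, gave 7.28, 6.11 and 5.58 on Ta, against 8.66, 8.11 and 8.85 on Ti, a difference of -2.22 (log2, SE 0.45, limma adjusted p = 0.0517). Stc1, whose product stanniocalcin 1 inhibits pappalysin 1, gave 7.44, 7.58 and 7.27 on Ta, against 5.83, 6.90 and 6.07 on Ti, a difference of 1.17 (SE 0.28, adjusted p = 0.0657). In both genes the groups did not overlap, as in 35.8% of all genes.

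The second ligand gene, Igf2, which also belongs to the imprinted growth genes, is named outside the rule, after its values were seen. It gave 9.79, 8.51 and 8.53 on Ta, against 9.76, 9.50 and 9.72 on Ti, a difference of -0.72 (log2, SE 0.35, limma adjusted p = 0.228), and Ta replicate 1 lay above every Ti array. Insrr, Igfbpl1 and Igfals were well above background on 0 arrays and were not tested.

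Among 34 genes of receptor signalling, 1 rose (2.66% of all genes), 0 fell (1.47%) and 33 did not pass. Grb14, an adaptor that binds and inhibits insulin and IGF1 receptors, gave 11.87, 12.20 and 12.44 on Ta, against 10.91, 11.13 and 10.75 on Ti, and rose by 1.23 (log2, SE 0.17, limma adjusted p = 0.0396). Without Ta replicates 2 or 3 or Ti replicates 1 or 3 its adjusted p was 0.124 to 0.165, in fits that called 0 genes. Grb14 was also not called with a block for replicate number or with no filter on dim probes (limma adjusted p = 0.0771 and 0.113). Within slide row 1 its difference was 1.25. The list's median was -0.02. Of 10 genes that act below the growth hormone receptor or bind Igf2 messenger RNA, 8 were tested. Of these 1 fell (1.47% of all genes) and 7 did not pass, with a median of -0.25. Igf2bp1, which encodes an RNA-binding protein of Igf2 transcripts, gave 4.50, 4.67 and 4.80 on Ta, against 5.23, 5.34 and 5.22 on Ti. It fell by 0.61 (log2, SE 0.10, limma adjusted p = 0.0443). With normexp background correction it fell by 0.05 and was not called (adjusted p = 0.64). The adjusted p was 0.127 to 0.165 without Ta replicates 2 or 3 or Ti replicates 1 or 3. With a block for replicate number, no filter on dim probes, and trend and robust settings, it was 0.0879, 0.123 and 0.0581 in limma. Socs1 and Socs2 were well above background on 1 and 0 arrays and were not tested.

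Likeness was measured over the 6 arrays as the root mean square difference of log2 values after subtracting each gene's mean. Genes whose symbol is a placeholder or an accession were left out of the ranking. Among the rest, the nearest to Igf1 were Cdh13 (0.055), S100b (0.057), Egr1 (0.078) and Mid2 (0.078). Cdh13 encodes a cadherin, S100b a calcium-binding protein, Egr1 an immediate early transcription factor and Mid2 a ubiquitin ligase. Among the members, Igfbp4 was the nearest to Igf1, at 0.128, with 0.122% of all genes nearer. Igfbp7 was the farthest, at 1.24. With 6 arrays in 2 groups, the difference between the surfaces enters this measure.

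The cell type markers were examined beside these values. Of 13 stromal markers, 12 were tested, and their summed linear signal was 347644 to 374681 on Ta and 369981 to 389860 on Ti. Cxcl12 rose by 1.06 and Thy1 by 0.67 (limma adjusted p = 0.0453 and 0.0439) and 0 fell, where 2.66% of all genes rose and 1.47% fell. Lepr was well above background on 0 arrays. At an unadjusted p under 0.05 in limma, 3 of the 12 were higher and 3 lower, against 16.8% and 13.2% of all genes. In all, 7 of the 12 lay below 0, with a median of -0.09. In 4 of the 12 every Ta array lay below all Ti arrays and in 3 above, against 16.3% and 19.5% of all genes. All 14 macrophage and monocyte markers passed the filter on dim probes. Of these 0 passed in limma, where 4.12% of all genes did. An unadjusted p under 0.05 in limma was found for 9, 8 lower and 1 higher, against 13.2% and 16.8% of all genes. In 7 every Ta array lay below every Ti array and in 1 above, against 16.3% and 19.5% of all genes. Their median difference was -1.17. Their summed linear signal was 151268, 84917 and 54318 on Ta replicates 1, 2 and 3, against 215479, 171122 and 227411 on Ti. Bright genes weigh most in this sum, such as Lyz2, at 16.01, 14.27 and 12.74 (log2) on Ta, against 16.85, 16.37 and 16.94 on Ti. Igfbp3, Igfbp4 and Igfbp6 had the same order of Ta arrays as the sum, with Ta replicate 1 nearest to Ti. Igf1 did not: it was lowest on Ta replicate 2, as was the summed signal of the adipocyte markers. Taken singly, 7 of the 14 markers had Ta replicate 1 between the other Ta arrays and every Ti array, and 7 did not. Kit of the mast cell list and Cebpa of the adipocyte list had it as well. The share of all genes with this order was not counted. C1qc and C1qb differed most, by -3.08 and -2.83 (limma adjusted p = 0.07 and 0.0696). The groups overlapped for Cd68 (-0.28), Adgre1 (-0.15), Itgam (-0.22) and Tyrobp (-0.48), among others, and Cd14 was higher on Ta (0.34).

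Of 6 mast cell markers, 5 were tested and 4 fell, where 1.47% of all genes fell. Cma1 did not stand well above background on a single Ta array (measured difference -3.72, limma adjusted p = 0.0353). With lower Ta values raised to the lowest signal of any probe well above background on that array, it was 6.18-fold lower (not tested). That signal is not this probe's own detection limit, so the fold is not a firm lower bound. Kit differed by -2.56, Mcpt8 by -2.16 and Cpa3, above background on 1 of 3 Ta arrays, by -1.93. The summed signal was 240 to 344 on Ta and 991 to 1833 on Ti. Of 6 neutrophil markers, 3 were tested, and S100a8 (2.95) and Camp (1.68) rose, where 2.66% of all genes rose. S100a9, Elane and Ltf were well above background on 0 arrays. Of 6 adipocyte markers, 3 were tested and 0 passed in limma (3 at an unadjusted p under 0.05, against 30% of all genes). The largest differences were in Fabp4 (-2.53, adjusted p = 0.067) and Cebpa (-0.89, adjusted p = 0.0982), with a summed signal of 3213 to 6141 on Ta and 7091 to 16924 on Ti. Of 6 endothelial markers, 5 were tested and 0 passed in limma (1 at an unadjusted p under 0.05, against 30% of all genes). Pecam1 (-0.96) and Tek (-0.52) differed most. The part of these cell types in the values of the IGF system genes was not tested. In such bulk RNA, fewer cells of a type and less RNA per cell cannot be told apart.

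**Figure D4:**
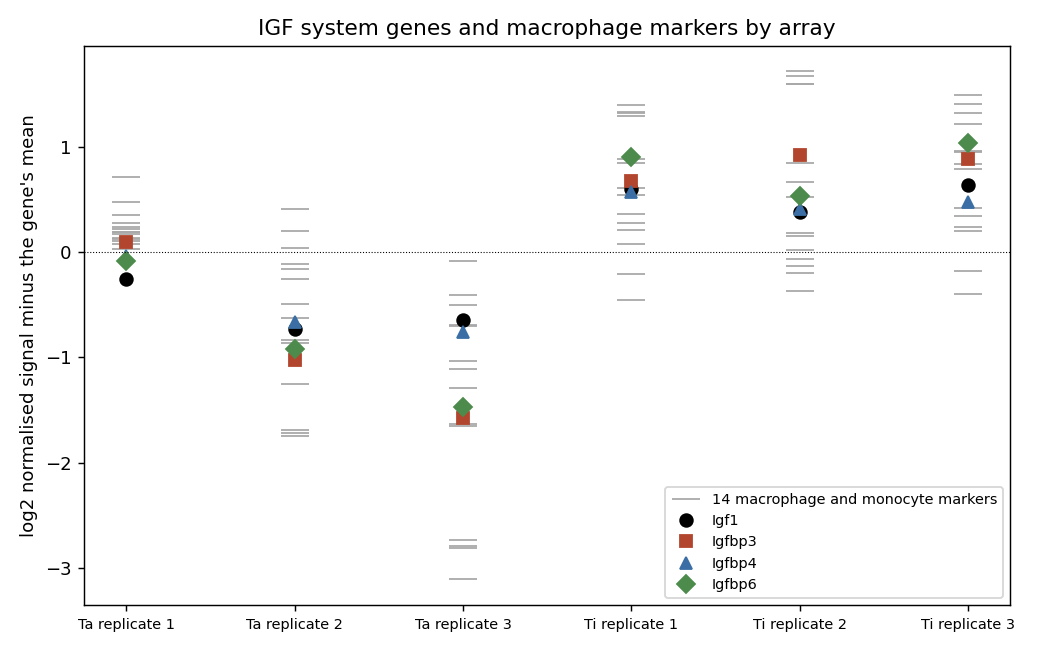
Log2 normalised signal minus each gene's mean over the 6 arrays (vertical axis) for Igf1, Igfbp3, Igfbp4 and Igfbp6 (coloured symbols) and 14 macrophage and monocyte markers (grey dashes) on each array. The 4 IGF system genes and 7 of the 14 markers are above their means on every Ti array and lowest on Ta replicates 2 and 3, with Ta replicate 1 between. The other 7 markers break this order. Markers of other cell types, such as Kit and Cebpa (not shown), also have it, and its share over all genes was not counted.

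The promoter windows of Igf1, Igfbp3, Igfbp4 and Igfbp6 are shown because these are the members in which every Ta array lay below all Ti arrays. Each holds the 250 bases before the gene start in RefSeq's GRCr8 assembly, 5′ to 3′ on the gene's strand. They lie at chr7:24172282-24172531 (plus strand), chr14:86277945-86278194 (minus strand), chr10:84491221-84491470 (plus strand) and chr7:135154669-135154918 (plus strand). Capitals mark any match to TATAAA or to TATATA on either strand.
Igf1: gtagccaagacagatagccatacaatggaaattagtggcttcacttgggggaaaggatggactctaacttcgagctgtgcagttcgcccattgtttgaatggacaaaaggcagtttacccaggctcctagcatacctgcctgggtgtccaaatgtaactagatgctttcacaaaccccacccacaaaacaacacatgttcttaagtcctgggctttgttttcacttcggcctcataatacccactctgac
Igfbp3: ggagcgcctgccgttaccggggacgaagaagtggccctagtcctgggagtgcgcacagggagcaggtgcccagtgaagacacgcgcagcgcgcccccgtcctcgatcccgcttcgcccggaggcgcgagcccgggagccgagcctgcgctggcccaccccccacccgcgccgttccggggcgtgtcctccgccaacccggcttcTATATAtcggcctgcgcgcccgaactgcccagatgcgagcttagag
Igfbp4: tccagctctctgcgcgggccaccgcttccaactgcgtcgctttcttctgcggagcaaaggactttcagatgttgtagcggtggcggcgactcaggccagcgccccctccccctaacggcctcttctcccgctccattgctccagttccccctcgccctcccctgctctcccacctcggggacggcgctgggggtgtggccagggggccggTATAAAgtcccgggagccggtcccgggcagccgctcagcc
Igfbp6: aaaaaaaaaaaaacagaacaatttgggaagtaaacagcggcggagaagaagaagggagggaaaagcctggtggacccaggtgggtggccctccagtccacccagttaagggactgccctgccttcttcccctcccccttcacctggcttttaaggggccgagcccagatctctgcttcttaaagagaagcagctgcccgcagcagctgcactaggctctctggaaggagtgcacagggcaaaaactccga

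In all, 12 motifs were searched on both strands of the windows of 9 members and of all 33469 windows, and the Pappa window was not analysed here. Igfbp4 held TATAAA 40 bases before its start, and 12.9% of all windows held it somewhere. Igfbp3 held TATATA 46 bases before its start, against 5.45% of all windows, and this motif was added after the Igfbp3 sequence had been seen. The motif GGGCGG was in 4 of the 9, those of Igf1r, Igf2r, Igfbp2 and Igfbp7, against 30.5% of all windows. The motif CAGGTG was in 3, those of Igf2r, Igfbp3 and Igfbp6, against 15.9%. The motif GTAAACA was in the Igfbp6 window alone among the 9, against 3.21%, and GATAA in the Igfbp5 window alone, against 23.5%.

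The other 6 motifs had no match in the 9 windows. They were CCAAT with 34.0% of all windows, TTCNNNGAA with 7.67%, TGANTCA with 6.34%, TTGCNNNAA with 8.17%, and 2 longer motifs of the STAT and NF-kB type, with 0.0896% and 1.30%. Of the 4 windows shown, the Igf1 window held 0 of the 12 motifs.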

How the data were processed

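The authors deposited the scanner output of each Cy3 array. Its processed spot intensity is background-subtracted and detrended, per the file headers, and the arrays are not scaled to each other. Feature Extraction and limma are the tools in the submitters' processing notes. The deposited value table holds the same values and was not used.

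The log2 processed signal was reduced by each array's 75th percentile over 58717 non-control spots, and the mean percentile was added back. Spots flagged as outliers were left out and spots of a probe averaged. Probes well above background on at least 3 of 6 arrays were kept, and the brightest stood for its gene. Names were taken from the file of Ta replicate 1 and updated through RefSeq (GRCr8) for 30650 probes. The test was two-sided, from a linear model of the 2 groups with moderated variances (limma 3.58.1, R 4.3.3). P-values were adjusted by Benjamini-Hochberg over all genes, or over all probes, with a threshold of 0.05. SE is limma's moderated standard error.

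The members, lists and alternatives were chosen with earlier results of these data known. Named genes were all members, and up to 4 called genes of each other list or up to 2 by size where none was called. The 4 genes most like Igf1 were also named, leaving out symbols that are placeholders or accessions. Pooling of cells, animals behind each culture and pairing by replicate number are not given in the sources used here. The p-values measure the spread between these arrays, and the number of arrays limits the precision. Exon and UTR positions were not analysed here. Alternatives were other scalings, background corrections, filters, probe rules, blocks and variance settings, and leaving out each array. Array weights were added after the data were seen.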

Additional observations from a re-analysis of the deposited data

How the results depend on the processing

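With all arrays, limma called 1 member gene, 4 member probes, 2 pathway genes and 809 genes in all. Normexp background correction gave 4, 7, 8 and 2602, and trend and robust settings gave 3, 7, 7 and 2106. Array weights, added after the data were seen, gave 8, 14, 26 and 10179. The stricter filter on dim probes gave 3 member genes and 5 pathway genes. With no filter on dim probes limma called 0 members, member probes, pathway genes or genes in all (5, 11, 13 and 5814 at an unadjusted p under 0.05). A block for slide row leaves Ti replicate 1 as the sole comparison for the Ta arrays, and there limma also called 0 of each (4, 8, 11 and 3837 unadjusted). Leaving out each array in turn gave 0 to 5 member genes, 0 to 9 member probes, 0 to 7 pathway genes and 0 to 3221 genes in all. In those fits a group of 2 arrays remains. Quantile and median scaling and the mean of all probes kept each count within 1.5 times. The cause of the changes was not tested.

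The replicate block gave 0 member genes, 0 member probes, 0 pathway genes and 8 genes in all. At an unadjusted p under 0.05 in limma these counts were 6, 13, 11 and 5101, the last out of 19616 genes. Deviations of same-numbered arrays from their group means correlated at 0.06, 0.13 and -0.18. Ta replicate 1 correlated best with Ti replicate 3 (0.18), and Ta replicates 2 and 3 with Ti replicate 2 (0.13 and 0.11). So few correlations cannot settle whether the arrays were paired.

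Igfbp5 and Pappa, not called, changed sign. Igfbp5 was at 0.13 with the mean of its probes and ranged from -0.62 to 0.16 over the arrays left out, positive without Ti replicate 1. Pappa was at 0.16 with the mean of its probes and 0.018 with array weights, and ranged from -0.19 to 0.023, positive without Ti replicate 2. The other 8 members kept their sign in each of the 16 alternatives. The second Igfbp5 probe stood well above background on every Ta array and on 1 of 3 Ti arrays.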
